A study of Mus musculus with 2 samples.

Results

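The miR-200 family was examined in small RNA-seq of mouse sperm. The family consists of 5 hairpins, miR-141, miR-200a, miR-200b, miR-200c and miR-429. Its members were taken by name from the deposited count tables, both arms of each hairpin included, which gave 10 of the 1886 listed mature miR entries. None of the 12 entries that join several miRs held a member. The sperm came from WT C57BL/6J mice labelled as naive and 3 months old, in 2 libraries described as independent biological replicates of 1 condition, and no treated group was analysed here. Sperm had swum out of the dissected epididymis into PBS, and the pellet was treated with a detergent-containing hypotonic buffer meant to remove epithelial cells. How many mice gave each library is not given in the sources used here. The tables' own names carry a term for a time after a treatment, which neither the labels nor the methods explain.

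miRs of the miR-200 family are known as markers of epithelial cells. There they repress the transcription factors Zeb1 and Zeb2, which switch off E-cadherin, so that the family holds cells in the epithelial state. A miR hairpin is cut into a 5p and a 3p arm, one of which is usually loaded into Argonaute to find target mRNAs through its seed, taken here as bases 2 to 8 from the 5′ end. The epididymis, in which sperm mature, is a tubule lined by epithelium.

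The 3p arms fall into 2 seed groups that differ at 1 base of the seed. These sequences are shown because the ratios between the replicates below follow that division, whereas the levels do not. The sequences are from RefSeq (GRCm38.p6), 5′ to 3′, with the seed in capitals.
miR-141-3p: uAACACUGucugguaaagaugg
miR-200a-3p: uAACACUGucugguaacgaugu
miR-200b-3p: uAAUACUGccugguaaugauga
miR-200c-3p: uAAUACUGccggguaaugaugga
miR-429-3p: uAAUACUGucugguaaugccgu
Counted from the 5′ end, miR-141-3p and miR-200a-3p differ by A17C and G22U and have the first 16 bases in common. miR-200b-3p and miR-200c-3p have the first 10 bases in common and differ by U11G and A22G over 22 compared bases. The step from the first seed to the second is C4U, as between miR-200a-3p and miR-200b-3p. No other of the 1669 mature miRs with a RefSeq sequence outside the family had a member's 3p seed, and none had a run of more than 10 bases in common with any member arm.

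The hairpins lie in 2 genomic clusters, and each cluster holds both seeds. On the minus strand of chromosome 4 (GRCm38, the build named in the submitters' processing notes) lie, in the direction of transcription, Mir200b at chr4:156055681-156055750, Mir200a at chr4:156054896-156054985 and Mir429 at chr4:156053905-156053987, within 1846 bases. In GENCODE all 3 lie in intron 1 of 2 annotated transcripts of the protein-coding gene Ttll10 (ENSMUSG00000029074.14) and on the same strand. Mir200b and Mir200a also lie in intron 1 of Gm13648 (ENSMUSG00000086549.1), a processed transcript, whereas Mir429 lies in its exon 2. On the minus strand of chromosome 6 lie Mir200c at chr6:124718322-124718390 and, 336 bases further, Mir141 at chr6:124717914-124717985. Both are in intron 1 of Gm15884 (ENSMUSG00000087327.1), annotated as antisense. The 3′ part of Mir141 also overlaps the single exon of Gm29008 (ENSMUSG00000099609.1), annotated as TEC (a transcript class awaiting experimental evidence), from position 124717914 to 124717944. The hairpins of miR-141 and miR-200a, which have the same 3p seed but lie in different clusters, are shown with both arms in capitals.
Mir141: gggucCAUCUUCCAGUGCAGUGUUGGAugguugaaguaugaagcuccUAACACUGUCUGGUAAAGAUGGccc
Mir200a: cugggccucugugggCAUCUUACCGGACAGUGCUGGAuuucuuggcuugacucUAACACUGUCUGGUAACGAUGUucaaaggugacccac

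Replicate 1 held 4049599 miR reads and replicate 2 held 5648067. Reads were scaled to 1000000 miR reads of the library (CPM), and 3 reads, taken as the smallest abundance that the depth can show, were 0.741 CPM in replicate 1 and 0.531 CPM in replicate 2. In these libraries miR-10a-5p and miR-10b-5p together took 78.0% and 80.4% of the miR reads, so that every other CPM depends on them. Wilson 95% intervals are given where they matter and cover counting error only, not variation between mice or libraries. Reads were counted without molecular identifiers, so copies of the same molecule count as separate reads and all counting intervals here may be too narrow. The labelled cell type was checked against 15 miR names known from male germ cells, all listed, in 22 entries. Of these entries, 13 had a read in both libraries and 8 had none in either, namely both arms of miR-449c, miR-449a-3p, miR-743b-5p and the only listed arms of miR-741, miR-871, miR-880 and miR-881. The germ-cell entries made up 0.568% of miR reads (replicate 1) and 0.230% (replicate 2), led by miR-34c-5p. Sets for smooth muscle and stroma (4.13% and 6.26%, led by miR-143-3p), blood (0.333% and 0.722%, led by the joined entry of miR-486a-5p and miR-486b-5p) and endothelium (0.00803% and 0.00825%, all from miR-126a-3p) had reads too. In each of these 3 sets 1 entry had no read, miR-143-5p, miR-486b-3p and miR-126a-5p. Without its most abundant entry, the germ-cell set made up 0.269% and 0.0982% of miR reads. Counted in the same way, the smooth muscle and stroma set made up 0.0483% and 0.0685%, and the blood set 0.0223% and 0.0333%. In a bulk sample, fewer cells of a type and less RNA per cell cannot be told apart.

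The miR-200 family was present in the sperm RNA of both libraries. All its entries together had 43063 reads in replicate 1, or 1.06% of the miR reads (1.05% to 1.07%), and 48281 reads in replicate 2, or 0.855% (0.847% to 0.862%). The mean was 0.959% ± 0.147 (SD, n = 2 libraries). Of the 10 arms, 9 had at least 1 read in each library, whereas 20.0% of all listed entries did. At the floor of 3 reads per library 8 arms remained, as did 17.2% of all entries. A 10-read minimum was passed by the same number of arms and by 12.9% of all entries, and a minimum of 100 reads by the 5 arms on the 3p side and by 6.52% of all entries. miR-141-3p alone made up 78.7% of the family's reads in replicate 1 and 82.8% in replicate 2. Without it the family took 0.227% and 0.147% of the miR reads.

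Among the 3p arms, the levels spread over a wide range. miR-141-3p, an arm of the chromosome 6 cluster, had 33874 reads in replicate 1 and 39972 in replicate 2, which is 8365 and 7077 CPM, a mean of 7721 ± 911 (SD, n = 2). It ranked 9th by mean CPM among the 378 entries with a read in both libraries. miR-429-3p, the last arm of the chromosome 4 cluster, had 4185 and 3575 reads, or 1033 and 633 CPM, with a mean of 833 ± 283 (SD, n = 2) and rank 34. These levels put miR-141-3p well above the next member in each library, by 8.09 times in replicate 1 and 11.2 times in replicate 2.

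miR-200c-3p, which lies upstream of miR-141 in the same cluster, had 3064 and 2612 reads, or 757 and 462 CPM, with a mean of 609.5 ± 208 (SD, n = 2). Its CPM range overlapped that of miR-429-3p across the libraries, so ranges taken across the libraries do not order the 2. Within each library, however, miR-429-3p had more reads, by 1.37 times in both (1.30 to 1.43 in replicate 1 and 1.30 to 1.44 in replicate 2). miR-200a-3p followed with 1091 and 1330 reads, or 269 and 235 CPM, a mean of 252 ± 24.0 (SD, n = 2). miR-200b-3p, transcribed first in the chromosome 4 cluster, was the lowest 3p arm, with 742 and 660 reads, or 183 and 117 CPM, a mean of 150.0 ± 46.9 (SD, n = 2). Neither of the latter overlapped its neighbours in the order.

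**Figure D1:**
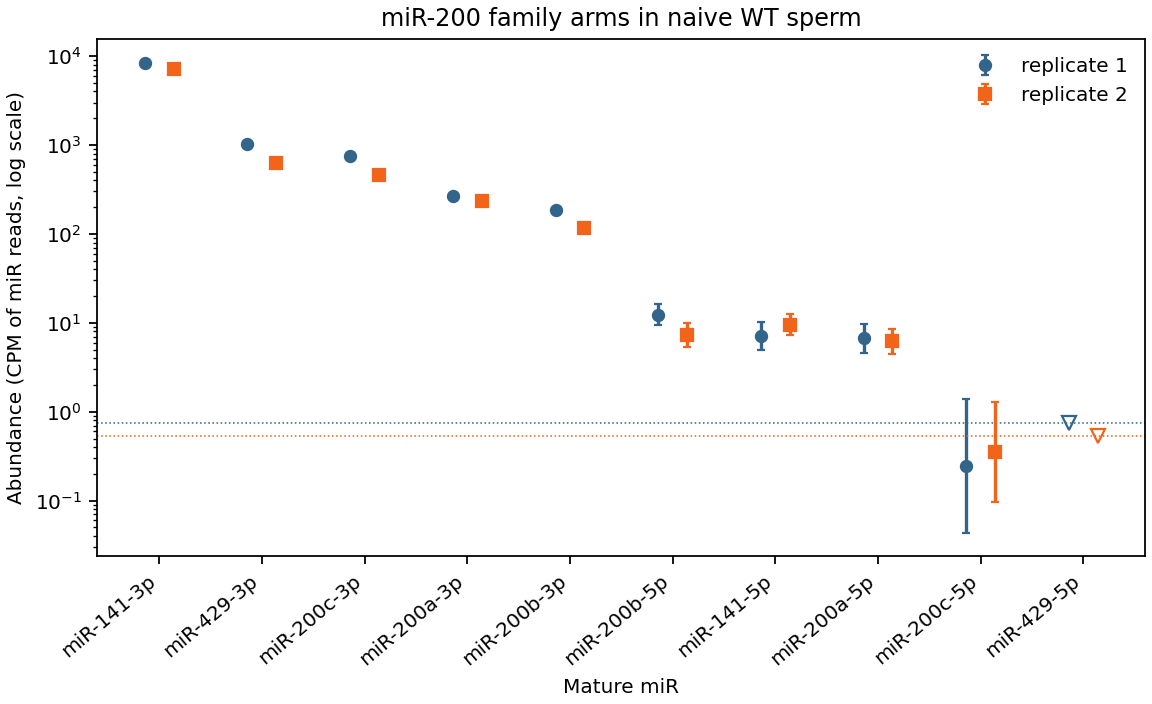
Abundance of the 10 arms in CPM of miR reads on a log axis, with 1 circle for replicate 1 and 1 square for replicate 2 per arm and Wilson 95% intervals as bars. Dotted lines mark the CPM of 3 reads, and the open triangles place miR-429-5p, which had no read, at that level. The 3p arms lie above 100 CPM in both libraries and the 5p arms at or below 12.3 CPM.

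The entries of other miRs nearest in level to miR-141-3p, by the distance of log2(CPM + 1) over the 2 libraries, were miR-99b-5p (7022 and 7178 CPM, distance 0.25), let-7f-5p (0.42) and miR-30a-5p (0.46). For miR-429-3p they were miR-146a-5p (1054 and 735 CPM, distance 0.22), let-7b-5p (0.39) and miR-99a-5p (0.46). With 2 libraries the distance describes level more than pattern.

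The reads of all 5 hairpins came mostly from the 3p arm. The 5p sequences are shown because their seeds, unlike those of the 3p arms, are mostly not the same.
miR-141-5p: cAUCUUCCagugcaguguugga
miR-200a-5p: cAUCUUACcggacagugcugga
miR-200b-5p: cAUCUUACugggcagcauugga
miR-200c-5p: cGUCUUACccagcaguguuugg
miR-429-5p: gUCUUACCagacaugguuaga
Only miR-200a-5p and miR-200b-5p have a seed in common. miR-200b-5p had 50 reads in replicate 1 and 41 in replicate 2, or 12.3 and 7.26 CPM. miR-141-5p had 29 and 54 reads, or 7.16 and 9.56 CPM, and miR-200a-5p had 27 and 35 reads, or 6.67 and 6.20 CPM. The ranges of miR-141-5p and miR-200b-5p overlapped, while that of miR-200a-5p lay just below both with overlapping counting intervals. miR-200c-5p had 1 and 2 reads, fewer than the 3 reads that the depth can show. No read was counted on miR-429-5p in either library, which allows up to 0.741 CPM in replicate 1 and 0.531 CPM in replicate 2.

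The 3p arms took 99.8% of the family's reads in replicate 1 and 99.7% in replicate 2. By hairpin, its share was 99.9% of the miR-141 reads in both libraries, 97.6% and 97.4% for miR-200a, and 93.7% and 94.2% for miR-200b. For miR-200c, 3064 of 3065 and 2612 of 2614 reads were 3p reads, and all 4185 and 3575 miR-429 reads were. miR-200b thus gave the largest part to its 5p arm among the 5, with intervals of 91.8% to 95.2% and 92.2% to 95.7% for its 3p share that did not reach those of miR-200a (96.5% to 98.3% and 96.5% to 98.2%). Between the libraries the 3p share of a hairpin moved by at most 0.464 points, that of miR-200b. All 5 hairpins had over 50% of their reads on the 3p arm in each library, and 4 had over 95%. Of all 119 hairpins that had both arms listed and 100 or more reads summed over both libraries, 42.9% passed the first limit and 29.4% the second.

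**Figure D2:**
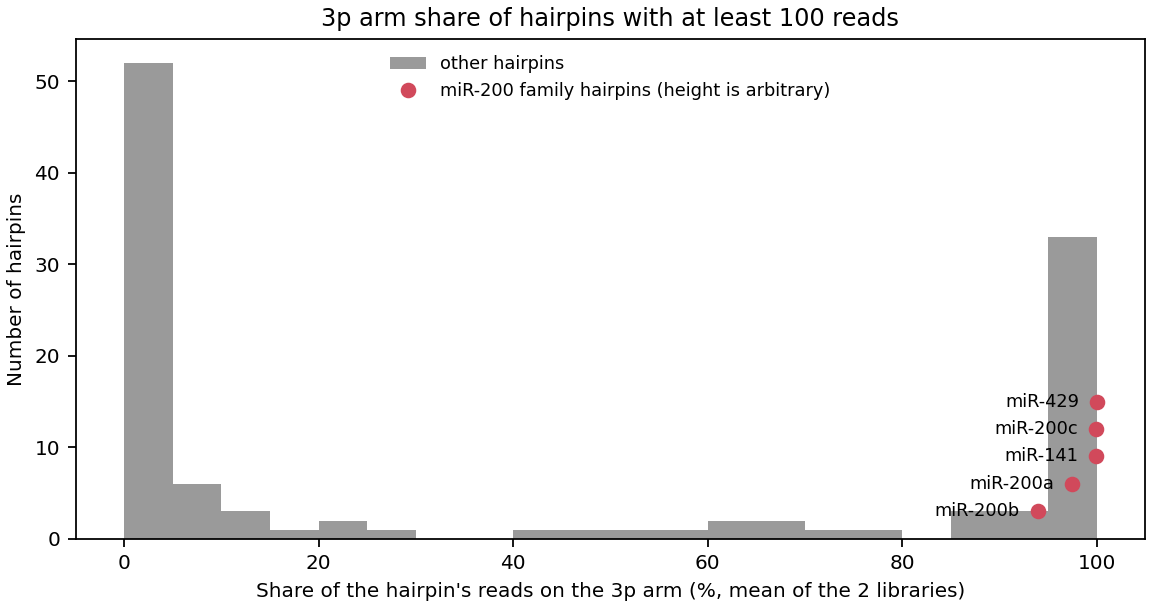
Histogram of the share of a hairpin's reads on the 3p arm, in percent as the mean of the 2 libraries, for hairpins with at least 100 reads, with the family's 5 hairpins as labelled points at an arbitrary height. Most hairpins sit at either end of the axis, and the family sits at the 3p end, with miR-200b at 93.9% the lowest of its members.

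Compared by genomic cluster, the family's reads came mostly from chromosome 6. The miR-200c/miR-141 cluster took 85.8% of the family's reads in replicate 1 (85.5% to 86.2%) and 88.3% in replicate 2 (88.0% to 88.6%), a mean of 87.1% ± 1.75 (SD, n = 2). This share rested on miR-141-3p. Without it, the same cluster took 33.7% (32.7% to 34.6%) and 32.1% (31.1% to 33.1%), a change of -1.56 percentage points from replicate 1 to replicate 2 (-2.95 to -0.167 from counting alone) where the share with miR-141-3p had changed by 2.47 points (2.03 to 2.91). The arms of a cluster were far from equal. On chromosome 6, miR-141-3p had 11.1 reads per miR-200c-3p read in replicate 1 and 15.3 in replicate 2. On chromosome 4, miR-429-3p made up 69.5% and 64.2% of the 3p reads, miR-200a-3p 18.1% and 23.9%, and miR-200b-3p 12.3% and 11.9%. The first of these shares changed by -5.30 points (-7.01 to -3.59) and the second by 5.77 points (4.29 to 7.25), whereas the change of the last, -0.470 points, had an interval that included no change (-1.66 to 0.721).

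Compared by seed, the first group of 3p arms, miR-141-3p and miR-200a-3p, took 81.4% of the family's 3p reads in replicate 1 (81.0% to 81.8%) and 85.8% in replicate 2 (85.5% to 86.1%), a mean of 83.6% ± 3.10 (SD, n = 2). Here the difference between the libraries remained when miR-141-3p was left out, since miR-200a-3p took 12.0% (11.4% to 12.7%) and 16.3% (15.5% to 17.1%) of the other 3p reads, a change of 4.25 points (3.21 to 5.30). Inside each seed group the proportions moved less. miR-200a-3p made up 3.12% of its group in replicate 1 (2.94% to 3.31%) and 3.22% in replicate 2 (3.05% to 3.39%). In the second group, miR-429-3p made up 52.4% and 52.2%, miR-200c-3p 38.3% and 38.1%, and miR-200b-3p 9.29% and 9.64%. The changes of these 4 shares lay between -0.195 and 0.354 points, and each counting interval of a change included 0, the widest reaching from -1.77 to 1.45 points.

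**Figure D3:**
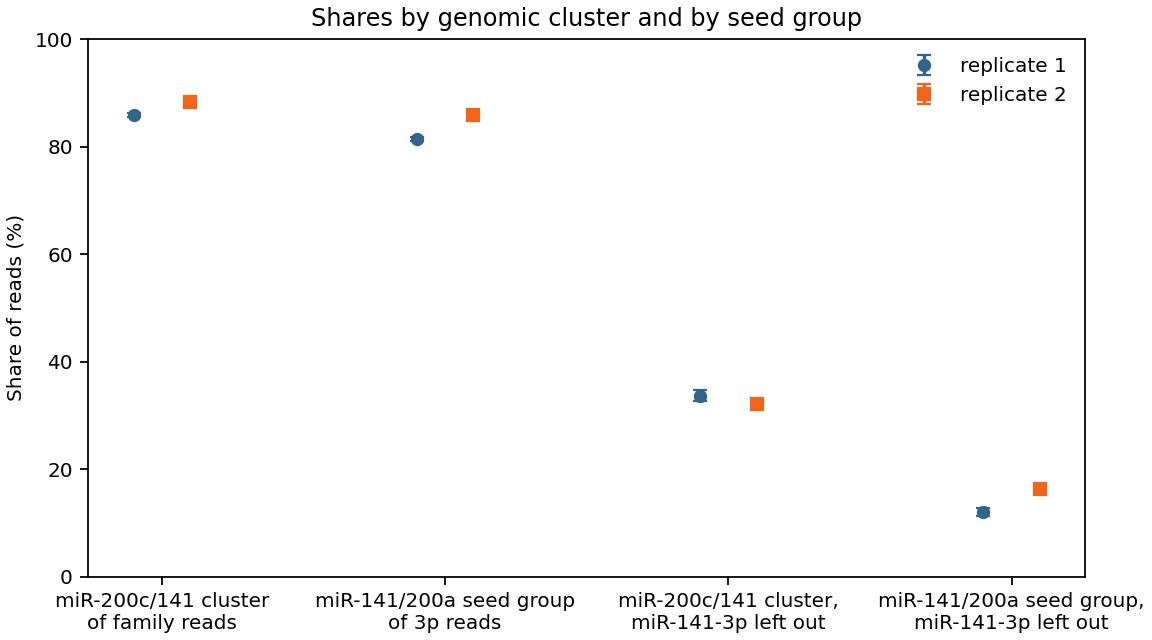
Share of reads in percent held by the miR-200c/miR-141 cluster (of the family's reads) and by the miR-141/200a seed group (of the 3p reads), with all members and with miR-141-3p left out, in replicate 1 (circles) and replicate 2 (squares), with Wilson 95% intervals. Without miR-141-3p the cluster share lies at 33.7% and 32.1%, a change of -1.56 points, and the seed share at 12.0% and 16.3%, a change of 4.25 points.

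The difference between the replicates was then described as the log2 ratio of replicate 2 to replicate 1, with 0.5 reads added to each count of a single arm. The family's summed CPM was lower in replicate 2, with a log2 ratio of -0.31 (-0.33 to -0.30 from counting alone). The 2 libraries have the same condition, and no p-value was computed. miR-141-3p and miR-200a-3p had log2 ratios of -0.24 and -0.19. miR-200b-3p, miR-200c-3p and miR-429-3p had -0.65, -0.71 and -0.71. The 2 seed groups did not overlap in this value, while each genomic cluster held arms of both kinds. How often seed groups of other miRs separate in this way was not computed. Of the 5p arms with at least 10 reads, miR-200a-5p had -0.11 (-0.83 to 0.61), miR-200b-5p -0.76 (-1.36 to -0.17) and miR-141-5p 0.41 (-0.24 to 1.05). These 3 intervals overlapped, which does not show that the 5p arms had the same ratio, and intervals of their differences were not computed.

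The sign of these log2 ratios depended on the scaling. Over the 323 entries whose reads summed to 10 or more, the median log2 ratio was -0.29, and TMM normalization raised every ratio by 0.35 and DESeq2 size factors by 0.34. Under TMM the ratios were 0.11 for miR-141-3p and 0.16 for miR-200a-3p, opposite in sign to those by CPM, and -0.30, -0.36 and -0.36 for miR-200b-3p, miR-200c-3p and miR-429-3p. A common factor cancels in the difference between the seed groups, which was 0.46 on the log2 scale (0.41 to 0.51 from counting alone) under every scaling tried. Inside the chromosome 4 cluster, miR-200a-3p exceeded miR-200b-3p and miR-429-3p together by 0.50 in this ratio (0.37 to 0.63). Inside the chromosome 6 cluster, miR-141-3p exceeded miR-200c-3p by 0.47 (0.39 to 0.55). Between clusters and within a seed, the differences were -0.047 for miR-141-3p against miR-200a-3p (-0.16 to 0.070) and -0.012 for miR-200c-3p against miR-200b-3p and miR-429-3p (-0.11 to 0.084), within counting error. Summed by cluster, the log2 ratio was -0.27 for chromosome 6 and -0.59 for chromosome 4, a difference of 0.32 (0.26 to 0.37). That order turned when the most abundant arm of each cluster was left out, with -0.69 on chromosome 6 without miR-141-3p and -0.37 on chromosome 4 without miR-429-3p. With 2 libraries, how such a difference varies from mouse to mouse is not known.

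**Figure D4:**
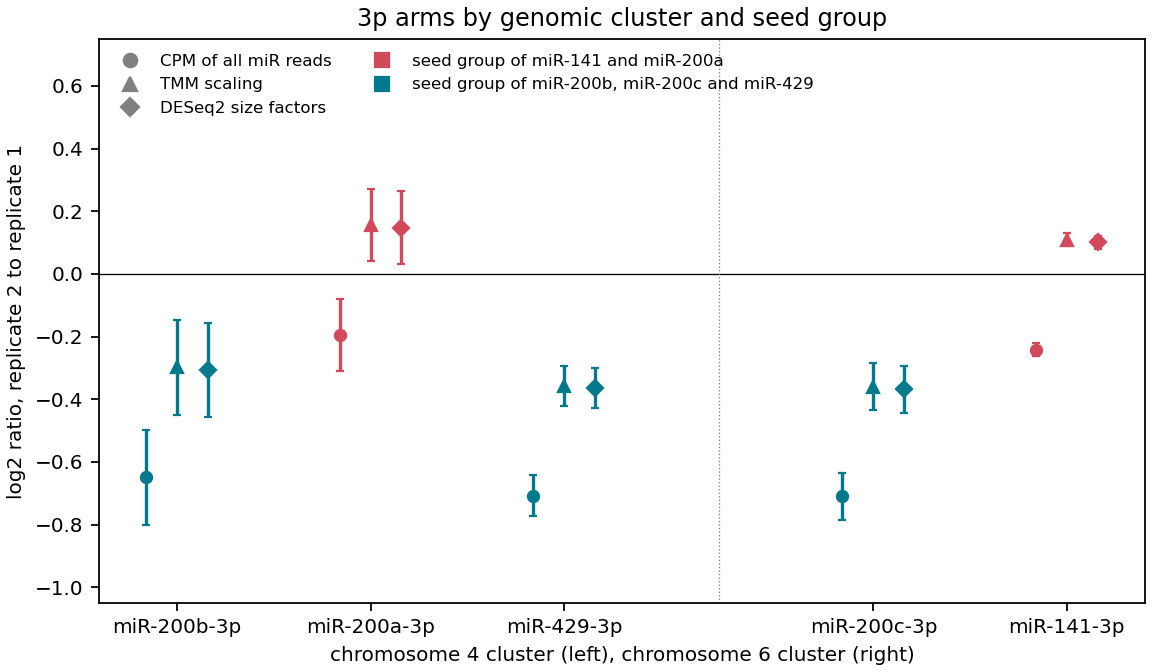
Log2 ratio of replicate 2 to replicate 1 for the 5 3p arms, placed by genomic cluster and coloured by seed group, under CPM of all miR reads (circles), TMM (triangles) and DESeq2 size factors (diamonds), with 95% counting intervals. The other scalings move all arms up together, and at each scaling the arms of miR-141 and miR-200a lie above the other 3 arms in both clusters.

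The family was then set beside all miRs. None of the 8 member arms with at least 10 reads had a log2 ratio past 1 in either direction, where 30.7% of all entries tested had. The 2 were not matched for depth, and entries with few reads vary more by counting alone. Under TMM, 82 of the 323 entries were past 1 and again none of the members. Of these arms, 7 were lower in replicate 2 by CPM, as were 65.9% of all entries. The median over the 8 arms was -0.44, against -0.29 over all. The similarity within a seed group was set beside that of other miRs whose reads summed to 100 or more, 144 of 165 such entries having a RefSeq sequence. The 4 same-seed pairs of the family differed in log2 ratio by 0.0030 to 0.061. The 95 other same-seed pairs differed by a median of 0.34, with quartiles of 0.13 and 0.64. Depth was not matched here, since the family's 3p arms had from 1402 to 73846 reads over both libraries. Other miRs entered from 100 reads, so counting error can add more to the differences of their pairs. The 3 pairs of the family with the same cluster and different seeds differed by 0.45 to 0.51, and 44 such pairs of other miRs, taken as hairpins within 10000 bases on 1 strand, by a median of 0.35. The 3 pairs of the family that had neither seed nor cluster in common differed by 0.41 to 0.52, close to its same-cluster pairs, and 10147 such pairs of other miRs by a median of 0.62. Such pairs have arms in common and are not independent, so these values only describe the 2 libraries.

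**Figure D5:**
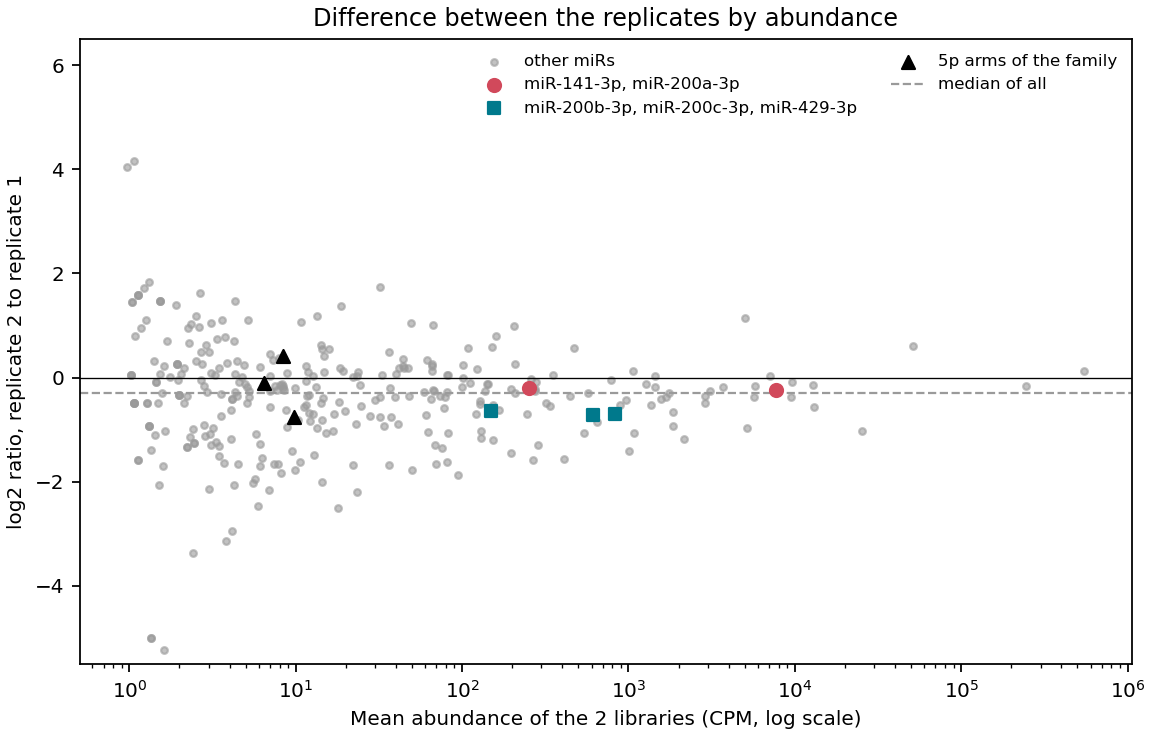
Log2 ratio of replicate 2 to replicate 1 against mean CPM (log axis) for the 323 entries whose reads summed to 10 or more, with the median of all at -0.29 as a dashed line. The family's 3p arms lie between -0.71 and -0.19, by CPM, inside the cloud of other miRs, and its 5p arms lie at the low-abundance end.

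Reads too short to tell 2 members apart were considered for the same-seed pair miR-141-3p and miR-200a-3p. The authors kept reads of at least 15 bases and first mapped without mismatches. A read of 15 or 16 bases from the start of either miR matches both, and no count in the tables was listed as ambiguous or as not uniquely aligned. How such reads were counted is not given in the sources used here. miR-141-3p had 31.0 reads per miR-200a-3p read in replicate 1 (29.2 to 33.0) and 30.1 in replicate 2 (28.5 to 31.7), so short miR-141 reads counted on miR-200a-3p would weigh on the smaller count, and their part in these values was not tested. Every other same-arm pair of members had at most 12 bases in a row in common, fewer than the shortest read kept.

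Other miRs listed as epithelial from general knowledge were present beside the family, and whether they are specific to epithelium was not tested. A set of 11 names (miR-31, miR-96, miR-182, miR-183, miR-184, miR-192, miR-194, miR-203, miR-205, miR-215 and miR-375) had 21 entries, of which 14 had a read in both libraries and 5 had none in either (miR-31-3p, miR-184-5p, miR-192-3p, miR-215-3p and miR-375-5p). The set made up 1.87% and 1.61% of miR reads, and 0.510% and 0.382% without its most abundant entry, miR-182-5p. The median log2 ratio was -0.45 over its 12 entries with at least 10 reads, against -0.44 for the family's 8 arms, -1.54 for 13 germ-cell entries, 0.56 for 8 smooth muscle and stroma entries and 1.01 for 9 blood entries. The family's median was -0.65 over its arms with at least 100 reads, and the medians of the sets were not computed at that minimum. miR-205-5p, known from basal epithelial cells, had 138 and 274 CPM, a log2 ratio of 0.99, and miR-31-5p had 38.5 and 8.32 CPM, a ratio of -2.20, so the set did not move as one. The part of RNA from epithelial cells of the epididymis in the family's counts was not tested.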

How the data were processed

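The 2 libraries hold small RNA of WT mouse sperm and form 1 group. The authors trimmed reads by quality, removed adapters with cutadapt 1.8.1, discarded reads below 15 bases and mapped with Bowtie 1.1.2, first to miR and piRNA sequences without mismatches. The deposited values are raw read counts per mature miR, 1 table per library, and the submitters' processing notes also name HTSeq. The miR annotation release and the treatment of reads that match several miRs are not given in the sources used here. The labels name a TruSeq RNA kit and the methods a small RNA preparation. The first mapping step, without mismatches, leaves out reads with an edited or added base, while the later steps allowed 1 mismatch. Whether reads mapped in the later steps entered the miR counts is not given in the sources used here. The 5 summary entries name no miR and were left out of totals. Their reads assigned to no miR were 38.1% and 26.3% of the listed reads.

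Tables were read with pandas 2.3.3, and CPM, Wilson intervals (scipy 1.17.1) and log2 ratios (numpy 2.4.6) were calculated in Python 3.11.15. Intervals of a change in share between libraries are Newcombe intervals. Log2 ratio intervals treat counts as Poisson. TMM factors came from edgeR 4.0.16 and size factors from DESeq2 1.42.0 (R 4.3.3), while matplotlib 3.10.9 made the plots. The log2 ratio of single entries and the coverage of the Wilson interval were tested on simulated data, and the member rule on example names. The other computations were not tested in this way. With 1 condition, no test between groups was made. Sequences were matched by name for 1613 of 1901 miR names. The members, marker lists and comparisons were chosen with earlier results of these data known. The text names all member arms, other miRs with a member's 3p seed, the 3 entries nearest in level to each of the 2 most abundant arms, and of each marker list the most abundant entry and those at 0. miR-205-5p and miR-31-5p were named after their values were seen. Alternatives were the scaling, the denominator, the read minimum, the pseudocount, pooled reads, arms, hairpins and single libraries.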

Additional observations from a re-analysis of the deposited data

How the results depend on the processing

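The family's share of the miR reads, 0.959%, was 4.59% when miR-10a-5p and miR-10b-5p were taken out of the denominator, 0.644% of all listed reads and 0.187% without miR-141-3p. The cluster share of miR-200c/miR-141, 87.1%, was 32.9% without miR-141-3p and 91.0% by the mean per hairpin. The seed group share of miR-141/200a, 83.6%, was 14.1% without miR-141-3p, and the 3p share, 99.7%, was 99.1% without miR-141. For the family sum, the log2 ratio of -0.31 was 0.036 under TMM, 0.028 with DESeq2 size factors, -0.15 without the 2 miR-10 entries in the denominator, -0.063 of all listed reads and -0.63 without miR-141-3p. The median log2 ratio of the arms, -0.44, was -0.094, -0.10, -0.28 and -0.19 under the same 4 scalings and -0.65 with at least 100 reads. These scalings multiply all counts of a library by 1 factor, so shares within the family and differences between members cannot change. The number of arms detected by a single read per library, 9, was 8 at the floor of 3 reads and at 10 reads, 5 with at least 100 reads in each library and 5 with arms merged into hairpins. With each library alone the family share lay between 0.855% and 1.06%, the cluster share between 85.8% and 88.3%, the seed group share between 81.4% and 85.8% and the 3p share between 99.7% and 99.8%, which 2 libraries force to within 1 SD of their mean. A ratio of the libraries needs both, so leaving one out gave no value. TMM and DESeq2 changed the sign of the log2 ratio of 3 of 8 arms, the 2 arms with the miR-141 seed and miR-200a-5p. Chosen after seeing the data, the log2 ratio of the miR-200c/miR-141 cluster was -0.27 and -0.69 without miR-141-3p, and that of the other cluster -0.59 and -0.37 without miR-429-3p. No paired analysis was possible because there is only 1 group.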
